A study of Mus musculus with 6 samples.

Results

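Fibroblast growth factor (FGF) ligands and their receptors were followed in mouse embryonic stem cells (mESCs) through 10 genes, 6 ligands (Fgf4, Fgf5, Fgf8, Fgf10, Fgf15 and Fgf17) and 4 receptors (Fgfr1 to Fgfr4). They were taken by name from a table of 24083 gene symbols, and all 10 were found there. The table holds RNA-seq of polyadenylated RNA from 6 libraries of mESCs, 3 labelled wild type (WT) and 3 labelled R153A, a form of the pluripotency factor NANOG in which the arginine at that residue is replaced by alanine. Both groups were cultured without other treatment on gelatin, in serum medium with the self-renewal cytokine LIF. The sources used here do not say how the allele was introduced, whether R153A is 1 clone, or whether the libraries of a group are separate cultures. The p-values then measure only the spread between these libraries, which may be technical.

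FGF ligands are secreted proteins that bind receptor tyrosine kinases together with heparan sulfate, and the receptors pass the signal through the adaptor FRS2 and the RAS proteins to the kinases MEK and ERK. In mESCs the main ligand is FGF4, whose gene carries a distal enhancer bound by OCT4 and SOX2. FGF4 acts on the cells that make it and, through ERK, readies them to leave naive pluripotency. FGF5 marks the epiblast after implantation, and FGF8 and FGF17 belong to the same ligand subfamily, known from the primitive streak and the midbrain.

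Levels are in FPKM, in which fragment numbers are divided by gene length and by library size, so genes can be set beside one another. Each library summed to between 360152 and 382086 FPKM, and its sequencing depth was unknown. Pearson correlations of log2(FPKM + 1) across the tested genes, which are not independent replicates, were 0.995 to 0.996 within groups and 0.947 to 0.950 between groups. A single residue change cannot be read from FPKM, so these values do not check the genotype. Nanog mRNA itself was lower in R153A, 118.7 to 129 against 241 to 259 FPKM, as was mRNA of its partner Wdr5, 40.9 to 42.8 against 64.0 to 67.1 FPKM. Of 8 mESC markers, all tested, 7 were lower in R153A and Tdgf1 was not called, where 22.3% of all genes tested were lower. Pou5f1, which encodes OCT4, still stood at 510 to 527 FPKM in R153A. Other cell types were followed with 8 markers each, summed in FPKM. Fibroblast and feeder markers summed to 5.68 to 6.48 in WT and 8.27 to 9.14 in R153A, with 3 tested. Col1a1 and Col1a2, the latter tested only through R153A, were higher, and Lum was listed at 0 in all WT libraries. Of the untested markers, Col3a1 was higher in R153A with no overlap, at 0.0600 ± 0.0192 FPKM in WT and 0.316 ± 0.0584 in R153A. So were Dcn (0.0425 ± 0.0337 and 0.241 ± 0.0561) and Pdgfrb (0.112 ± 0.0193 and 0.237 ± 0.0317), while Lum and Postn overlapped. Thy1 was not called, at 3.79 ± 0.467 FPKM in WT and 3.19 ± 0.274 in R153A. It was called lower under median-ratio scaling, under quantile normalization and without WT replicate 2. Without Thy1 the sum was 1.95 to 2.40 in WT and 5.30 to 5.81 in R153A. Neuroectoderm markers summed to 59.7 to 68.4 in WT and 52.5 to 55.2 in R153A, with 3 tested. Tubb3 fell, from 48.3 ± 4.07 to 15.3 ± 0.112 FPKM, while Nes rose from 3.99 ± 0.444 to 23.3 ± 1.21 FPKM and Olig2 rose too, so that without Tubb3 the sum was 13.8 to 15.9 in WT and 37.0 to 39.96 in R153A. Trophectoderm markers summed to 67.7 to 74.7 in WT and 42.0 to 42.5 in R153A, with 6 tested. Tfap2c and Tead4 fell, Krt7 rose and Cdx2, tested only through R153A, rose. Without Tfap2c, which went from 55.4 ± 3.24 to 19.8 ± 1.10 FPKM, that sum was 15.99 to 17.3 in WT and 21.8 to 23.4 in R153A. The part of such cells in the results on the FGF genes was not tested.

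The start regions of Fgf4, Fgf5 and Fgfr3 are shown because Fgf4 and Fgf5 are ligand genes whose mRNA moved in opposite directions, and Fgfr3 is the receptor gene that fell. By symbol, 6 of the 10 genes had a RefSeq window on build GRCm38.p6. The sequences run from 250 bases before the listed start up to the base before it, on the plus strand, at chr7:144861136-144861385 (Fgf4), chr5:98253934-98254183 (Fgf5) and chr5:33721474-33721723 (Fgfr3, the first of 2 listed starts). Capitals mark the GC box GGGCGG on either strand, where CCGCCC is its reverse complement.
Fgf4: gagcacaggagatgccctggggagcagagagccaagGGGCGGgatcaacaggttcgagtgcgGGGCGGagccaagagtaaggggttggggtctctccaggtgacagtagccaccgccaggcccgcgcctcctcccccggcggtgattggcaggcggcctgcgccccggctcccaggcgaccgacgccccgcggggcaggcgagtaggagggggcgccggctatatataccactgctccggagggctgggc
Fgf5: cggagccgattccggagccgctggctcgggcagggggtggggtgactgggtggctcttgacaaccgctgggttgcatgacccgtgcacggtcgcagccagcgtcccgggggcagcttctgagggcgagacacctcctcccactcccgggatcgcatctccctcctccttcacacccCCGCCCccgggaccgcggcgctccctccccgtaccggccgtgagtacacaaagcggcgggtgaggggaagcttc
Fgfr3: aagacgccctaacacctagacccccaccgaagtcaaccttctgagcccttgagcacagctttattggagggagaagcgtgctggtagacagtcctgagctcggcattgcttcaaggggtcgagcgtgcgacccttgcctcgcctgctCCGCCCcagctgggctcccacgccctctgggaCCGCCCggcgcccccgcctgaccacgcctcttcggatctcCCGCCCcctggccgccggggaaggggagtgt
The Fgf4 window holds 2 GC boxes on the plus strand, the Fgf5 window 1 and the Fgfr3 window 3 on the minus strand. A GC box occurs in 32.7% of all 32851 RefSeq windows of this length. The TATA box TATAAA (in 12.4% of windows) and the POU octamer ATTTGCAT (1.6%) were not found in the 3 windows. Nor were the SOX motif ATTGTT (9.42%) and the homeodomain motif TAATGG (6.57%). All were searched on both strands, as exact letters only. Variants of a motif, such as the run tatatata in the Fgf4 window, were not counted. The windows shown are rich in G and C, at 71.2% for Fgf4, 70.8% for Fgf5 and 66.8% for Fgfr3. Of the genes not shown, Fgfr2 had a window with 44% G and C and none of the motifs searched. The windows of Fgf10 (61.2%) and Fgfr4 (64%) held GC boxes. These matches are letters in a reference sequence, and binding was not measured.

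Among the ligands, Fgf4 was the most abundant in both groups and fell 3.35-fold in R153A, Fgf15 and Fgf17 fell as well, and Fgf5 and Fgf8 rose. Among the receptors, Fgfr1 and Fgfr2 rose about equally and Fgfr3 fell. In the test across all genes, limma on log2(FPKM + 1) with Benjamini-Hochberg adjustment, 8 of the 10 members reached 1 FPKM in at least 3 of the 6 libraries and were tested. Of these, 4 were higher and 4 lower at an adjusted p under 0.05, and Fgf8 was tested only through its level in R153A. Fgf5 reached 1 FPKM in WT replicate 1 alone, so it too passed the filter through R153A. Over all 11817 genes tested, 59.8% were called, 37.5% higher and 22.3% lower, and the median log2 fold change was 0.07, so a call was the more common outcome among these libraries. The split over all genes was 4428 higher and 2634 lower as deposited, 3764 and 3655 under median-ratio scaling, and 3515 and 3893 under quantile normalization. All 8 tested members kept their direction and call under both scalings. In bulk RNA, fewer cells with a transcript and less transcript per cell cannot be told apart.

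**Figure D1:**
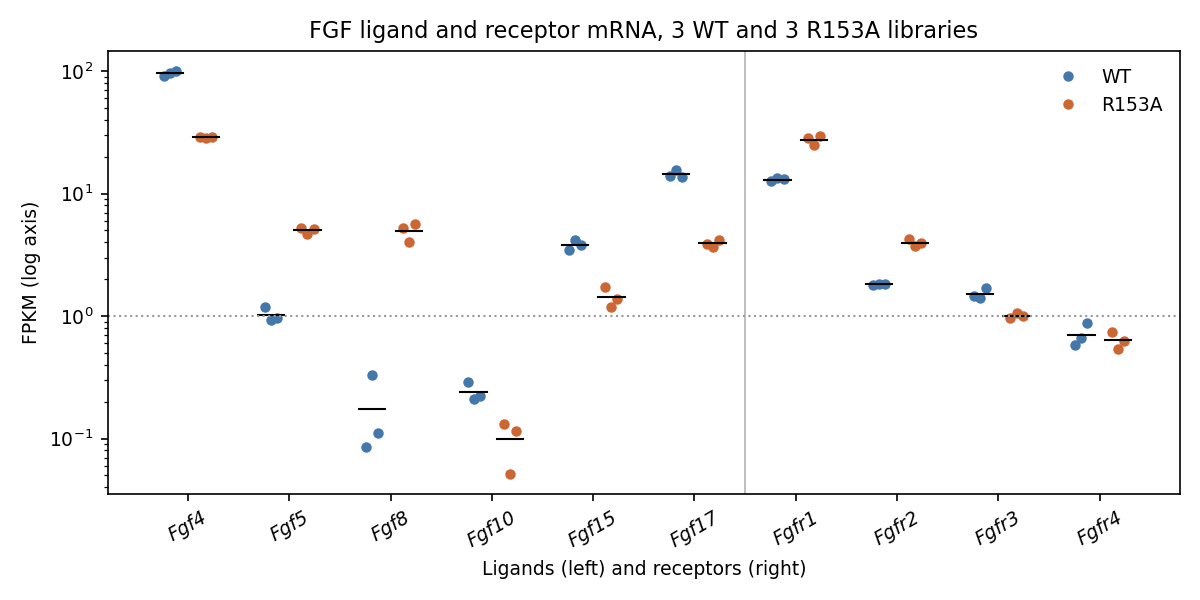
FPKM on a log axis for the 6 ligands and 4 receptors, with 1 point per library, WT in blue and R153A in orange, and black bars for group means. The dotted line is 1 FPKM, the level used for the filter. Fgf4 drops from 91.8 or more in WT to 29.0 or less in R153A, while Fgf8 rises from below to above the dotted line.

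Fgf4 stood at 91.8, 96.7 and 100.3 FPKM in the WT libraries and at 28.7, 28.5 and 29.0 FPKM in the R153A libraries. The groups lay far apart, and the R153A libraries were almost level with one another. The mean fell from 96.3 ± 4.22 to 28.7 ± 0.291 FPKM (SD, n = 3, as for every ± given here), a 3.35-fold lower level, with a log2 fold change of -1.71 (95% interval -1.82 to -1.60, limma adjusted p = 5.5e-10). Only 1.86% of the genes tested changed by more in either direction. By rank of mean FPKM among all genes in the table, Fgf4 went from the 97.7th to the 90.6th percentile. Of its known activators, Sox2 was 207, 207 and 216 FPKM in WT against 89.0, 82.5 and 82.1 in R153A, and Pou5f1 averaged 688 ± 16.6 FPKM in WT and 518 ± 8.84 in R153A. Both were lower (limma adjusted p = 3.4e-09 and 2e-05), and their part in the Fgf4 result was not tested.

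Fgf17 stood at 14.0, 15.6 and 13.8 FPKM in the WT libraries, against 3.88, 3.66 and 4.20 FPKM in R153A. Every R153A library was below every WT library. The mean was 3.69-fold lower, with a log2 fold change of -1.65 (95% interval -1.81 to -1.49, limma adjusted p = 1.1e-08). Fgf15, the mouse counterpart of human FGF19 and a gut hormone in the adult, stood at 3.43, 4.20 and 3.78 FPKM in WT. In R153A it stood at 1.71, 1.18 and 1.38 FPKM, again with no overlap. Its log2 fold change was -0.99 (95% interval -1.21 to -0.77, limma adjusted p = 6.5e-06), a 2.67-fold lower mean.

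Among the ligands that fell, the ratio of Fgf4 to each of the others overlapped between the groups. Fgf4 was 6.55, 6.19 and 7.29 times the level of Fgf17 in WT and 7.39, 7.77 and 6.91 times in R153A. It was 23.0 to 26.8 times the level of Fgf15 in WT and 16.8 to 24.2 times in R153A. The ratio of Fgf17 to Fgf15 did not overlap, at 3.64 to 4.09 in WT and 2.27 to 3.12 in R153A. These ratios were chosen after the values were seen and were not tested.

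Fgf5 was at 1.19, 0.928 and 0.962 FPKM in the WT libraries, against 5.22, 4.71 and 5.18 FPKM in R153A. All 3 R153A libraries were above all 3 WT libraries, in which the gene lay around the 1 FPKM limit. The mean was 4.91-fold higher, with a log2 fold change of 1.58 (95% interval 1.40 to 1.76, limma adjusted p = 4e-08). Fgf4 mRNA was 77.2 to 104.2 times as abundant as Fgf5 mRNA in WT and 5.50 to 6.04 times in R153A.

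Fgf8 was at 0.0858, 0.328 and 0.110 FPKM in the WT libraries, against 5.26, 4.05 and 5.64 FPKM in R153A. WT was near the bottom of the scale, with replicate 2 above the others, and R153A was higher in every library. The log2 fold change was 2.34 (95% interval 2.09 to 2.60, limma adjusted p = 3e-08), and 4.30 with a pseudocount of 0.1 in place of 1. T, the streak factor brachyury, rose beside it, at 0.0726, 0.101 and 0.176 FPKM in WT and 4.52, 3.78 and 4.27 FPKM in R153A. Of the 8 mesoderm and streak markers, 3 were tested. T, tested only through R153A, rose, and Hand1 was not called. Eomes was lower, with a limma adjusted p of 0.0163, but not without WT replicate 2 (limma adjusted p = 0.0737), without R153A replicate 2 (0.0627) or with no filter (0.0714). Among the untested markers, Gsc was lower, at 0.571 ± 0.115 FPKM in WT and 0.286 ± 0.0890 in R153A. Mixl1 was higher, at 0.0723 ± 0.0190 and 0.353 ± 0.0875 FPKM. Neither overlapped between the groups, while the rest did. The summed FPKM of all 8 was 6.62 to 7.80 in WT and 9.80 to 11.3 in R153A. Without Eomes it was 3.79 to 4.28 in WT and 7.76 to 8.79 in R153A. Mesp1 was listed at 0 in 5 of the 6 libraries, and the part of such cells in the Fgf8 result was not tested. The order of Fgf8 and Fgf17, of 1 subfamily, thus differed between WT and R153A libraries, though their ranges overlapped in R153A. The WT ratio rests on Fgf8 values near the bottom of the scale. Fgf17 was 47.7 to 163 times the level of Fgf8 in WT and 0.739 to 0.905 times in R153A.

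Fgf10, a ligand of the mesenchyme that acts on epithelial FGFR2, did not reach the filter. It was at 0.292, 0.211 and 0.223 FPKM in the WT libraries, against 0.131, 0.0516 and 0.116 FPKM in R153A. The R153A libraries were lower with no overlap. An exact two-sided permutation test gave p = 0.1, which is the minimum for 3 libraries against 3. With no filter on low values its log2 fold change was -0.18 (limma adjusted p = 0.0135).

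Fgfr1, the main receptor of mESCs and of the epiblast, was at 12.6, 13.3 and 13.1 FPKM in the WT libraries, against 28.4, 25.0 and 29.3 FPKM in R153A. The groups were well apart, and R153A replicate 2 was the lowest of its group. The mean rose 2.12-fold, with a log2 fold change of 1.02 (95% interval 0.88 to 1.17, limma adjusted p = 1.9e-07). Fgfr2, the receptor tied to primitive endoderm in the blastocyst, was at 1.81, 1.83 and 1.84 FPKM in the WT libraries, against 4.26, 3.70 and 3.97 FPKM in R153A. The WT libraries were nearly identical, and all R153A libraries were higher. The mean rose 2.18-fold, with a log2 fold change of 0.81 (95% interval 0.65 to 0.98, limma adjusted p = 3.4e-06).

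Both receptors rose by nearly the same factor. The ratio of Fgfr1 to Fgfr2 was 6.96, 7.29 and 7.12 in WT and 6.68, 6.75 and 7.38 in R153A, so the groups overlapped. Of 8 other markers of primitive endoderm, which summed to 3.46 to 4.65 FPKM in WT and 5.73 to 6.52 in R153A, 3 were tested. Foxa2, tested only through R153A, rose from 0.176 ± 0.0811 to 3.40 ± 0.341 FPKM. Without it the sum was 3.20 to 4.49 in WT and 2.57 to 3.19 in R153A. Sox7, tested only through WT, fell, and Gata4 was not called, at 1.48 ± 0.216 FPKM in WT and 1.48 ± 0.156 in R153A. Gata6 and Sox17, which define the lineage, were at 0.202 FPKM or less in all 6 libraries. Sox17 went from 0.0604 ± 0.0141 to 0.0141 ± 0.0126 FPKM, lower in R153A with no overlap, while Gata6 overlapped. Of the untested others, Dab2 (0.0130 ± 0.00250 FPKM in WT and 0.710 ± 0.101 in R153A) and Pdgfra (0.0301 ± 0.00540 and 0.119 ± 0.00880) were higher in R153A with no overlap, and Afp overlapped. The part of such cells in the Fgfr2 result was not tested.

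Fgfr3 was at 1.45, 1.39 and 1.70 FPKM in the WT libraries, against 0.958, 1.06 and 1.01 FPKM in R153A. The groups did not overlap, but the step was small. The mean fell 1.50-fold, with a log2 fold change of -0.32 (95% interval -0.50 to -0.14, limma adjusted p = 0.00583). It was -0.54 with a pseudocount of 0.1 and -0.63 under quantile normalization, and 39.8% of the genes tested changed by more. Fgfr4, a receptor of liver and muscle, was under 1 FPKM in every library, at 0.575, 0.660 and 0.875 FPKM in WT and 0.743, 0.542 and 0.621 FPKM in R153A. Its groups overlapped, with an exact two-sided permutation p of 0.6.

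**Figure D2:**
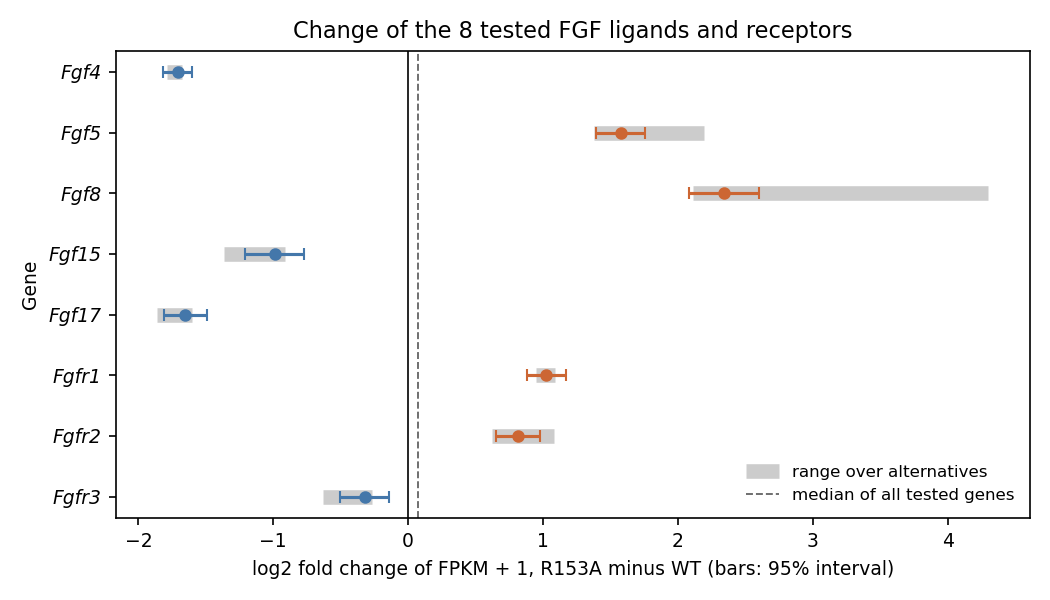
Log2 fold change of FPKM + 1, R153A minus WT, for the 8 tested members. Points are estimates, bars are 95% intervals, grey bands span the alternative analyses and the dashed line is the median of all tested genes (0.07). No grey band crosses 0, and the band of Fgf8 reaches 4.30.

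At least a 2-fold change on this scale, a log2 fold change of 1 or more in size, was called for 5 members, Fgf4, Fgf5, Fgf8, Fgf17 and Fgfr1. Of these 3 were higher and 2 lower. Over all genes tested, 8.29% passed both limits, 5.98% higher and 2.31% lower. The FPKM values of the groups did not overlap for any of the 8 tested members, as for 65.0% of all genes tested. Each of the 8 had p = 0.1 in the exact permutation test.

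The order of the levels changed between the groups. In WT the order was Fgf4, Fgf17, Fgfr1, Fgf15, Fgfr2, Fgfr3, Fgf5, Fgfr4, Fgf10 and Fgf8, and only Fgf10 and Fgf8 overlapped with their neighbour in the order. In R153A the order was Fgf4, Fgfr1, Fgf5, Fgf8, Fgfr2, Fgf17, Fgf15, Fgfr3, Fgfr4 and Fgf10. There Fgf4 overlapped with Fgfr1, and in the run Fgf5, Fgf8, Fgfr2 and Fgf17 each gene overlapped with its neighbour. Fgf17 and Fgf15 did not overlap.

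Summed over the 6 ligands, the level was 111, 118 and 119 FPKM in WT and 44.9, 42.1 and 45.6 FPKM in R153A. Summed over the 4 receptors, it was 16.4, 17.2 and 17.5 FPKM in WT and 34.4, 30.3 and 34.8 FPKM in R153A. The ligand sum was lower and the receptor sum higher in every R153A library. Ligand mRNA was 6.76 to 6.84 times receptor mRNA in WT and 1.31 to 1.39 times in R153A. For the single pair Fgf4 and Fgfr1 the ratio was 7.24 to 7.66 in WT and 0.993 to 1.14 in R153A. These sums and ratios describe the chosen genes and carry no test.

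**Figure D3:**
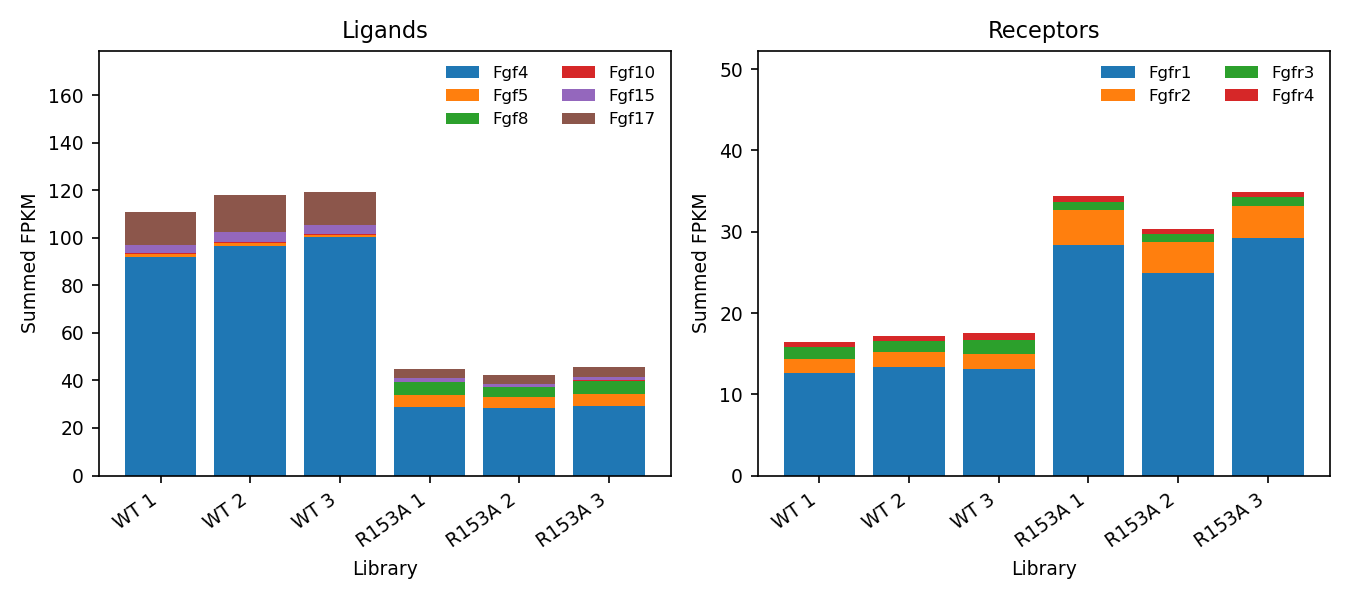
Stacked FPKM of the 6 ligands (left) and the 4 receptors (right), 1 bar per library, both axes from 0. The ligand bars are shorter and the receptor bars taller in R153A, and Fgf5 and Fgf8 take up more of the R153A ligand bars.

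The make-up of the ligand pool shifted as well. Fgf4 held 82.0% to 84.2% of the summed ligand FPKM in WT and 63.7% to 67.6% in R153A. Fgf5 went from 0.787% to 1.07% in WT to 11.2% to 11.6% in R153A, and Fgf8 from 0.0774% to 0.278% to 9.61% to 12.4%. Fgf15 held 3.09% to 3.56% and 2.79% to 3.81%, which overlapped. In the receptor pool Fgfr1 held 74.8% to 77.5% in WT and 82.5% to 83.9% in R153A, and Fgfr3 held 8.07% to 9.71% and 2.79% to 3.51%.

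Fgf4 lies between Fgf3 and Fgf15 in the order of protein-coding genes on chromosome 7, and all of these neighbours encode FGF ligands. Fgf3, a ligand of inner ear development, was at 1.61, 1.66 and 1.55 FPKM in the WT libraries, against 0.548, 1.03 and 0.862 FPKM in R153A. Every R153A library was lower. Its log2 fold change was -0.53 (limma adjusted p = 0.001), and -0.94 with a pseudocount of 0.1 and -0.84 under quantile normalization. So the 3 adjacent ligand genes all fell. Beyond them, Oraov1 was not called (4.12 ± 0.670 and 4.46 ± 0.407 FPKM), nor were Ppfia1, Fadd and Tpcn2. Tpcn2 (limma adjusted p = 0.0759) was called lower under median-ratio scaling (0.0206), quantile normalization (0.00183), without WT replicate 1 (0.0392) and without R153A replicate 1 (0.0499). Ccnd1, which encodes cyclin D1, averaged 22.3 ± 1.47 FPKM among WT and 19.7 ± 1.22 among R153A libraries, with a log2 fold change of -0.17 (limma adjusted p = 0.0393). That call was lost in 7 of 16 alternatives. Its limma adjusted p was 0.0873 without WT replicate 1, 0.12 without WT replicate 2, 0.0591 without R153A replicate 1 and 0.154 without R153A replicate 2. It was 0.0574 with replicate number as a block, 0.0617 without the variance trend and 0.0792 with no filter. Ano1, on the other side of Fgf3, was under 1 FPKM in all libraries and higher in R153A, at 0.255 to 0.397 against 0.0720 to 0.0992 FPKM. Cttn, which encodes the actin-binding cortactin, rose from 37.1 ± 1.21 to 48.1 ± 1.55 FPKM (limma adjusted p = 7.4e-05).

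**Figure D4:**
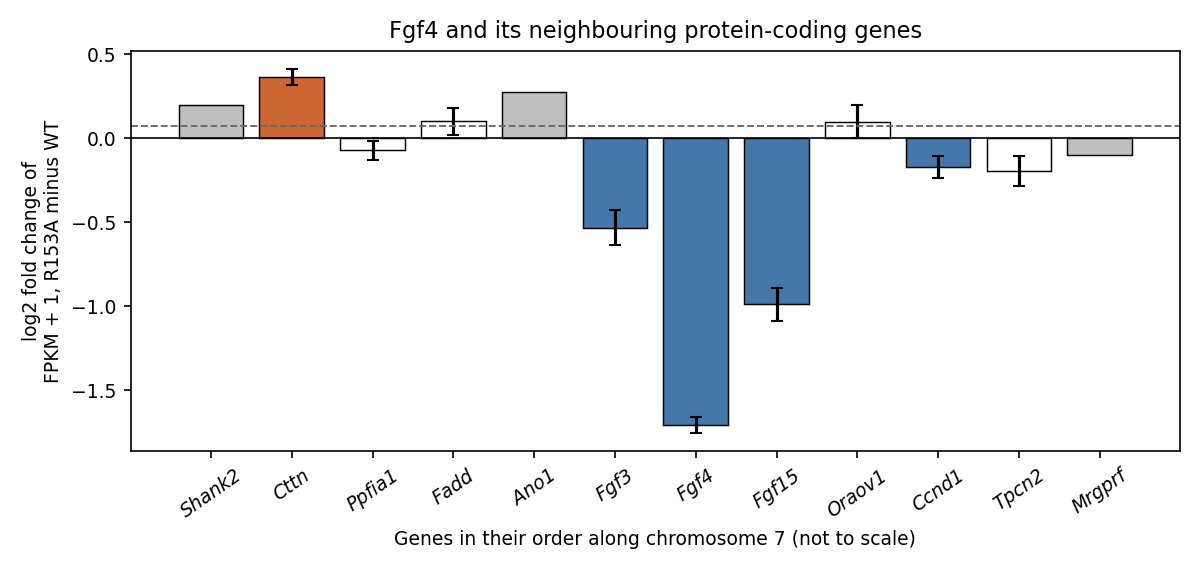
Log2 fold change of FPKM + 1, R153A minus WT, for Fgf4 and the protein-coding genes around it that were in the table, in their order along the chromosome and not to scale. Bars are estimates with SE, blue lower, orange higher, white tested and not called, grey not tested, and the dashed line is the median of all tested genes. The bars of Fgf3, Fgf4 and Fgf15 are the longest and all point down.

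Of the 16 other Fgf genes, 12 were under 1 FPKM in all 6 libraries, with Fgf20 listed at 0 throughout. The 2 that were tested were Fgf3 and Fgf13, an intracellular FGF homologous factor that is not secreted. Fgf13 rose from 2.91 ± 0.174 to 4.26 ± 0.0977 FPKM (log2 fold change 0.43, or 0.26 under quantile normalization, limma adjusted p = 0.00034). Fgf18, of the same subfamily as Fgf8 and Fgf17, was at 0.357, 0.536 and 0.477 FPKM in the WT libraries, against 0.841, 0.866 and 1.41 FPKM in R153A and was not tested. Fgf2, often added to epiblast stem cell culture, was at 0.263 FPKM or less.

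The FGF co-receptors, decoys and binding proteins held 8 genes, of which 3 were tested and all 3 rose, where 37.5% of all genes tested were higher. Fgfbp3 was tested only through R153A. Fgfbp1 reached 1 FPKM in WT replicate 3 alone, so it too passed the filter through R153A. Fgfbp1, a secreted carrier that frees FGFs from the matrix, was at 0.781, 0.867 and 1.05 FPKM in the WT libraries, against 6.25, 5.65 and 7.03 FPKM in R153A (log2 fold change 1.94, limma adjusted p = 1.9e-08). Fgfrl1, a receptor-like protein without a kinase domain, rose from 1.48 ± 0.197 to 4.68 ± 0.543 FPKM (log2 fold change 1.20, limma adjusted p = 1e-06). Fgfbp3 rose from 0.249 ± 0.100 to 1.66 ± 0.0506 FPKM. Its log2 fold change was 1.09, or 2.37 with a pseudocount of 0.1 and 1.71 after rescaling to TPM. Klb and Kl, the co-receptors of the hormone-like FGFs, were under 1 FPKM in all libraries.

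Heparan sulfate is part of the FGF receptor complex, and of 20 genes of its synthesis and its proteoglycans 19 were tested. Of these 13 rose, 5 fell and 1 was not called, where 37.5% of all genes tested were higher and 22.3% lower. The median log2 fold change of the list was 0.48, against 0.07 over all genes tested. Sulf1, which trims sulfate from heparan sulfate chains, rose most, from 0.272, 1.03 and 0.9996 to 7.92, 7.27 and 8.38 FPKM. Its WT replicate 1 was lower than the others (log2 fold change 2.35, limma adjusted p = 2.5e-07). Only WT replicate 2 reached 1 FPKM, so Sulf1 passed the filter through R153A. Hs6st2, a sulfotransferase, rose from 0.677 ± 0.0867 to 5.22 ± 0.0960 FPKM and was tested only through R153A. Its paralogue Hs6st1 fell from 28.0 ± 1.81 to 19.99 ± 0.629 FPKM, and Sulf2 fell from 29.3 ± 1.87 to 24.1 ± 0.664 FPKM. So in both pairs the abundant gene fell and the scarce one rose. The glypican gene Gpc1 rose from 5.53 ± 0.351 to 12.2 ± 0.748 FPKM and the chain polymerase gene Ext1 from 5.53 ± 0.323 to 11.3 ± 0.211 FPKM. Its partner Ext2 stood at 12.6 ± 0.252 and 13.9 ± 0.610 FPKM and was not called (limma adjusted p = 0.0694).

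The adaptors and the RAS-ERK cascade changed little in size. All 20 genes were tested, of which 12 rose, 1 fell and 7 were not called, with a median log2 fold change of 0.21 and none reaching 1. The shares over all genes tested were 59.8% called, 37.5% higher and 22.3% lower. Scaling moved the counts of this list, to 10 higher and 5 lower under median-ratio scaling and 11 higher and 5 lower under quantile normalization. Mapk3, which encodes ERK1, rose from 27.2 ± 1.93 to 39.3 ± 0.477 FPKM (log2 fold change 0.52, limma adjusted p = 1.5e-05). The phosphatase gene Ptpn11 rose from 18.7 ± 1.15 to 25.5 ± 0.273 FPKM and Hras from 19.0 ± 0.798 to 25.6 ± 0.970 FPKM. The member that fell was Grb2, the adaptor between FRS2 and SOS, from 39.7 ± 1.25 to 30.3 ± 0.144 FPKM (log2 fold change -0.38, limma adjusted p = 4.2e-05).

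Feedback inhibitors, many of them induced by ERK, rose or were not called. Of 15 genes 14 were tested, of which 10 rose, none fell and 4 were not called, with a median log2 fold change of 0.50. Over all genes tested, 59.8% were called, 37.5% higher and 22.3% lower. Under quantile normalization Nf1 was called lower. Dusp6, a phosphatase that acts on ERK and is widely used as a readout of FGF signalling, was at 8.88, 9.76 and 8.27 FPKM in the WT libraries, against 26.3, 22.7 and 26.1 FPKM in R153A. It was higher in all R153A libraries, with a log2 fold change of 1.39 (limma adjusted p = 5.6e-08). Spred3 rose from 0.898 ± 0.0889 to 3.73 ± 0.398 FPKM, having been tested only through R153A, and Spred1 from 6.59 ± 0.692 to 13.1 ± 0.400 FPKM. Il17rd, a membrane inhibitor of FGF receptors, rose from 4.48 ± 0.613 to 9.62 ± 0.188 FPKM. The sprouty genes differed from one another: Spry1 rose from 4.58 ± 0.560 to 6.50 ± 0.203 FPKM, while Spry2 stood at 21.7 ± 2.89 and 21.6 ± 0.541 FPKM and Spry4 at 8.96 ± 1.64 and 9.04 ± 0.902.

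Transcription factors induced by ERK were mixed. Of 12 genes 10 were tested, of which 6 rose, 2 fell and 2 were not called, with a median log2 fold change of 0.37. The shares over all genes tested were 59.8% called, 37.5% higher and 22.3% lower. Under quantile normalization Fos was also lower. Etv4, of the PEA3 group of FGF-induced ETS factors, was at 26.4, 31.4 and 29.8 FPKM in the WT libraries, against 14.1, 14.0 and 14.7 FPKM in R153A. It was lower throughout (log2 fold change -0.98, limma adjusted p = 3.1e-07). Its relative Etv1 rose from 2.31 ± 0.184 to 4.18 ± 0.576 FPKM. The third of them, Etv5, stood at 78.0 ± 3.10 and 75.3 ± 0.742 FPKM and was not called (limma adjusted p = 0.386), but was called lower under median-ratio scaling (limma adjusted p = 0.0182). Ier2 fell from 56.3 ± 4.31 to 36.8 ± 2.97 FPKM, and Ier3 rose from 15.8 ± 2.22 to 26.4 ± 1.54 FPKM. Egr1, an immediate early gene, rose from 0.992 ± 0.0656 to 2.68 ± 0.257 FPKM. Its log2 fold change was 0.88, or 1.35 with a pseudocount of 0.1. Egr1 reached 1 FPKM in WT replicate 2 alone, and so passed the filter through R153A.

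**Figure D5:**
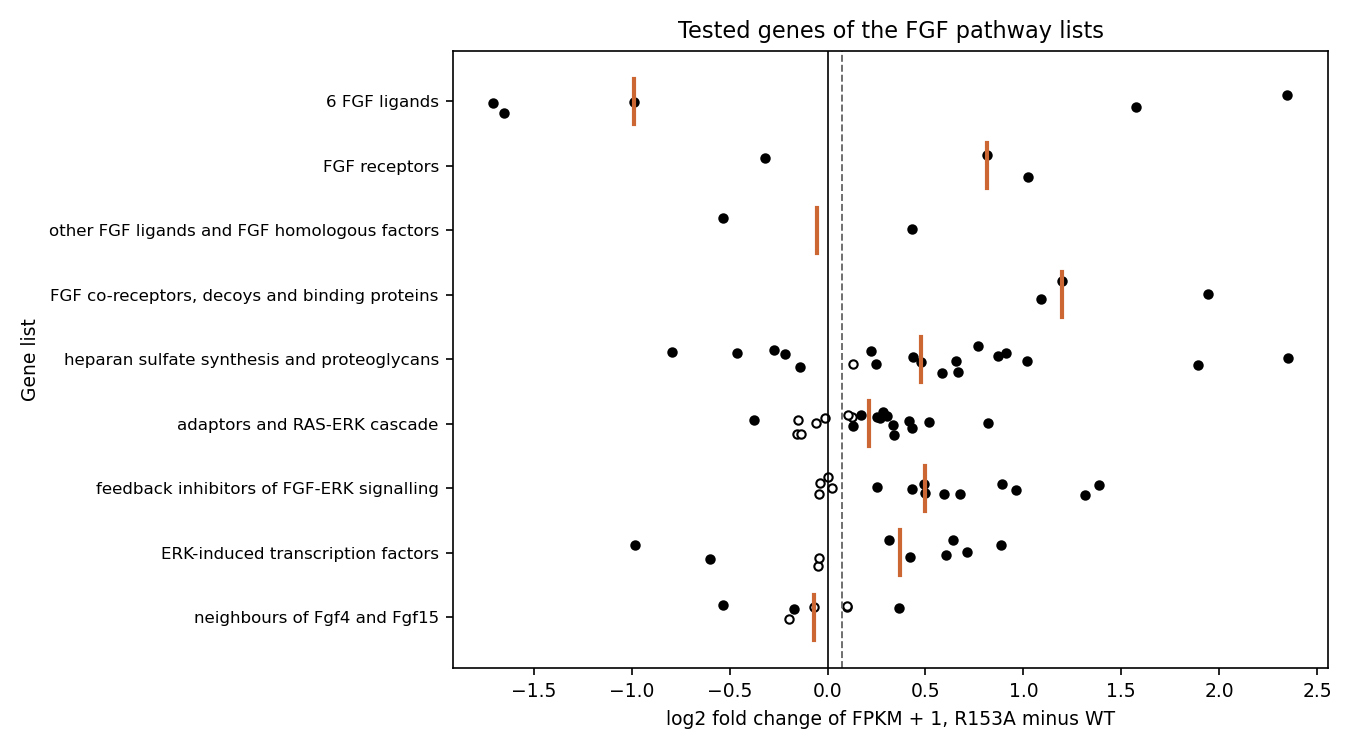
Log2 fold change of FPKM + 1, R153A minus WT, for the tested genes of each list, 1 point per gene, filled where called and open where not. Orange bars are list medians, the solid line is 0 and the dashed line is the median of all tested genes (0.07). The ligands lie on both sides of 0, and no called feedback inhibitor lies below 0.

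The genes whose profile over the 6 libraries was nearest to that of Fgf4 were Lrrc34, Reep6 and Mmp11. The measure was the Euclidean distance of log2(FPKM + 1), each gene centred on its own mean. Their distances were 0.147, 0.150 and 0.153, and their means fell from 12.0 to 3.26, from 25.2 to 7.52 and from 39.2 to 11.7 FPKM. Nearest to Fgfr1 were Wnt5b (0.0611), Cdk14 (0.0743) and Uggt2 (0.0791), all of which were under 1 FPKM in the WT libraries and tested only through R153A. Wnt5b, a WNT ligand gene, rose from 0.115 ± 0.0206 to 1.28 ± 0.128 FPKM. With 2 groups and 6 libraries these distances mostly reflect the size of the step between the groups on the log2(FPKM + 1) scale. That scale understates changes of genes with low FPKM, so the likeness to Fgfr1 does not hold for folds. Mean FPKM rose 3.42-fold for Uggt2 against 2.12-fold for Fgfr1, and Cdk14 went from 0.0977 to 1.32 FPKM.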

How the data were processed

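The authors deposited FPKM values, 1 per gene symbol and library, for 3 WT and 3 R153A libraries. Build mm9 and the tools edgeR 3.26.8, HTSeq 0.11.2, SAMtools 1.9 and Bowtie2 2.3.4.3 are named, with no role, per the submitters' processing notes. The sources used here do not give the tool behind the FPKM, the annotation or the use of strand, so reads shared by paralogues or antisense genes could not be assessed. No counts were given, so depth was unknown and no count test was run.

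Values were used unscaled as log2(FPKM + 1), which understates changes of genes with low FPKM. Genes with at least 1 FPKM in at least 3 of 6 libraries (11817) were tested with limma 3.58.1 (R 4.3.3), with a variance trend, 2-sided, with Benjamini-Hochberg adjustment over all of them. A gene is described as tested only through 1 group where no library of the other group reached 1 FPKM. Of the named genes that rose, Fgf5, Fgfbp1, Sulf1, Egr1, Col1a1 and Krt7 reached it in some WT libraries, but in fewer than 3. They too passed the filter through R153A. The fit was tested on simulated data. Exact permutation tests were added for single genes. Folds are ratios of mean FPKM, given where every library reached 0.1 FPKM. Promoter windows came from RefSeq (GRCm38.p6), another build than mm9. Figures used matplotlib 3.10.9 under Python 3.11.15.

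The members and gene lists were chosen with earlier results of these data known. From each pathway list the rule named up to 4 called genes by size of change and the most abundant gene not called. Genes outside that rule (Hs6st1, Sulf2, Grb2, Spry1, Spry4, Ano1, Oraov1, Ier2, Fgf2, Fgf18, T, Sox2 and Pou5f1 among them) were named after their values were seen. Some genes of the lists are in the counts but not reported here by name. Hras was listed by its older symbol and matched through RefSeq. Alternatives were pseudocounts of 0.1 and 0.5, no filter and a filter of 5 FPKM, median-ratio scaling, TPM, quantile normalization, limma without a trend, limma with robust moderation, a block for the replicate number, and each library left out in turn.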

Additional observations from a re-analysis of the deposited data

How the results depend on the processing

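All 8 tested members kept their direction and call in each of the 16 alternatives that tested them, the largest adjusted p being 0.0295, for Fgfr3 without WT replicate 3. With a filter of 5 FPKM only 3 members were tested and called, 1 higher and 2 lower, and 2901 genes were higher over the whole table, since fewer genes were tested. The number of genes called ranged from 6282 to 6909 with 1 library left out, against 7062. With the replicate block it was 6876, with the same 4 members higher and 4 lower. Same-numbered libraries did not deviate together (correlations -0.0487, -0.00946 and 0.06, against -0.0539 to 0.0771 for differently numbered ones). So no pairing by number was seen in these values. The labels do not say whether the numbers mark a shared batch. Of 38 genes followed through the alternatives, 34 kept direction and call throughout and 4 did not, Ccnd1, Etv5 and Ppfia1 among them. Eomes, Tpcn2 and Thy1, looked at besides, did not either. Ppfia1 was called lower under median-ratio scaling (adjusted p = 0.0253) and quantile normalization (0.0197). Depth was unknown, so the precision of values under 1 FPKM could not be judged.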
